A study of Mus musculus with 6 samples.

Results

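The mitochondrial ribosomal protein genes are the nuclear genes whose symbols start with Mrpl (large subunit) or Mrps (small subunit) followed by a number, without those marked as pseudogenes. By that rule 78 of the 27179 identifiers of the count table were members, 49 Mrpl and 29 Mrps genes, and 77 of them passed the limit on low expression that left 11005 genes for testing. They lay on 17 chromosomes. Of the members, 44 were grouped by the number in their symbol as having a counterpart in bacterial ribosomes and 34 as particular to mitochondria. This grouping and the split by subunit go by symbol alone, so single members may stand in the wrong group.

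Mitochondrial ribosomes translate the few messages of the mitochondrial genome, which encode core subunits of the respiratory chain and of the ATP synthase. All their proteins are encoded in the nucleus, made in the cytosol and imported, and they assemble on ribosomal RNA transcribed from mitochondrial DNA. Germinal center (GC) B cells are the fast-dividing cells in which antibody genes are mutated and selected, and they are known to rely on oxidative phosphorylation. IL-21, a cytokine of follicular helper T cells, acts on these cells through the receptor encoded by Il21r.

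RNA-seq was performed on 6 libraries of NP-binding IgG1+ CD38- CD138- GC B cells that were sorted from the spleens of C57BL/6 mice, either wild type (WT) or deficient in the IL-21 receptor (Il21r-/-), on day 7, 10 or 14 after immunization with NP-KLH in alum, a T cell-dependent antigen. There was 1 library of each genotype on each day. The series text describes each library as an independent mouse, whereas the study's text describes several mice per genotype, in total and on day 7, so whether a library holds 1 mouse or a pool is not settled. The labels call the mice only WT or Il21r-/-, and the methods of the study state that nearly all of its experiments used irradiated Ly5.1 hosts rebuilt with WT or Il21r-/- bone marrow, so the cells sorted here may come from such hosts, whose own radioresistant cells were not of the donor genotype. Mice of both sexes, matched for age and sex, were used in the study, ages are given only as 1 range for all experiments, and all cells, WT included, came from immunized mice. With 3 libraries per genotype, p-values measure only the spread between these libraries, and a single day has no replicate within a genotype. Expression is given as CPM, reads scaled to a common library size with TMM factors, levels between genes are compared as CPM per kilobase of exon (RPKM), and a log2 fold change above 0 means more expression in WT.

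The libraries held 21353438 to 27435124 counted reads, and members took 0.515 to 0.648% of them. Il21r itself had 346, 263 and 247 CPM in WT and 106, 128 and 113 CPM in Il21r-/- on days 7, 10 and 14, and was lower in every Il21r-/- library (log2 fold change 1.29, standard error (SE) 0.13, adjusted p = 0.00137 by edgeR's quasi-likelihood test). All 12 GC and B cell markers of the list used were expressed, with summed levels of 11500 to 13100 CPM in WT and 12200 to 14000 CPM in Il21r-/-. The 11 T cell markers summed to 89.0 to 123 CPM in WT and 88.6 to 121 CPM in Il21r-/-, nearly all from Lck (99.9 CPM on average), and 8 of them, Cd3d, Cd3e and Cd3g included, were under 1 CPM. The 10 myeloid markers summed to 2.64 to 7.00 CPM in WT and 2.63 to 8.86 CPM in Il21r-/-, with 6 under 1 CPM and Mpo and Elane at 0 in all libraries. The 8 erythroid markers, of which 7 were in the table, summed to 10.2 to 19.1 CPM in WT and 4.95 to 34.0 CPM in Il21r-/-. The 9 markers of non-GC B cells summed to 567 to 1230 CPM in WT and 949 to 1480 CPM in Il21r-/-, and the 7 plasma cell markers to 3580 to 4070 and 3970 to 5260 CPM, mostly Jchain and Mzb1, with Sdc1 and Tnfrsf17 under 1 CPM. The part of these other cell types in the results below was not tested.

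The promoter windows of 69 of the 78 member genes were matched by gene in a RefSeq table (GRCm38.p6), 75 windows of 300 bases that run from 250 bases before to 50 bases after a start site. 4 motifs of factors known to act on nuclear genes for mitochondrial proteins were searched on both strands. The core site of NRF1 (GCATGCGC) was in 8 of the 75 windows (10.7%), against 2.71% of all 32851 windows of the table and 5.70% of the windows of the genes tested. The ETS site bound by GABP (CCGGAAG) was in 26 windows (34.7%), against 8.86% of all windows and 19.7% of those of the genes tested. The YY1 site (AANATGGCG) was in 11 windows (14.7%), against 2.38 and 5.67%. The E-box CACGTG, a site of Myc among others, was in 7 windows (9.33%), against 7.15 and 10.5%. Overlapping windows of Mrpl2 held the same E-box. By gene the E-box was in 5 of 69 members, against 2187 of 27025 genes in all and 1052 of 8529 of the genes tested. None of the 4 letter strings contains another, and at least 1 NRF1 or ETS site was in 30 of the 75 windows (40.0%), against 11.0% of all windows and 24.1% of those of the genes tested. In windows of cytosolic ribosomal protein genes the shares were 3.9% (NRF1), 35.1% (ETS), 13.0% (YY1) and 10.4% (E-box). In windows of oxidative phosphorylation subunits they were 13.5, 23.0, 13.5 and 9.46%, so these shares were not particular to the members. A match describes the letters of a window and was not tied to binding in these cells.

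The windows of 5 members are shown, with matches in capitals on the gene's own strand, written 5′ to 3′ (a match in capitals may be the reverse complement of the motif). Mrpl33 was the member with the highest level per length, and its NRF1 and ETS matches lie 12 and 3 bases before the start site. Mrps16 was the only member called higher in Il21r-/- when libraries were paired by day, and it has 2 ETS matches in 1 of its 2 windows. Mrps18a, Mrps18b and Mrps18c are paralogs that differed in level, and each has an ETS match at a different place, beside a YY1 match in Mrps18a, NRF1 matches in Mrps18b and an E-box in Mrps18c.
Mrpl33 (chr5:31613701-31614000, + strand, GRCm38.p6, RefSeq): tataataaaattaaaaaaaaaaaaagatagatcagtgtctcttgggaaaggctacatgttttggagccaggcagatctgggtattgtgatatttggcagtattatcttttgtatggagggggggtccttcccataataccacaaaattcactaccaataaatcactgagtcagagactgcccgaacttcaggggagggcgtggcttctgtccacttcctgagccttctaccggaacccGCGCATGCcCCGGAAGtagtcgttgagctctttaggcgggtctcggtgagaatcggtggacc
Mrps16 (chr14:20393441-20393740, - strand, GRCm38.p6, RefSeq): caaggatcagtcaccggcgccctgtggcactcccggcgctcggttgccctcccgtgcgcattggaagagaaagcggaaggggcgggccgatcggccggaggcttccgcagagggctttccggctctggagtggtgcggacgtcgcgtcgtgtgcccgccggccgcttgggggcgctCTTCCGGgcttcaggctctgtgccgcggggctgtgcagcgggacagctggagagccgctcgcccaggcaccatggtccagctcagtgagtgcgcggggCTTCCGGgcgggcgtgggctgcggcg
Mrps18a (chr17:46110754-46111053, + strand, GRCm38.p6, RefSeq): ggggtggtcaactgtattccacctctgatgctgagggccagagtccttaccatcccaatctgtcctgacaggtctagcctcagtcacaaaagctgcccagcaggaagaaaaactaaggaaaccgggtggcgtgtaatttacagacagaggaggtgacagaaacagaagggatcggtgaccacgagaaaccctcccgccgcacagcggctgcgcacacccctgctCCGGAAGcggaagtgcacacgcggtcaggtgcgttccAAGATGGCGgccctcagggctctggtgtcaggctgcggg
Mrps18b (chr17:35916391-35916690, - strand, GRCm38.p6, RefSeq): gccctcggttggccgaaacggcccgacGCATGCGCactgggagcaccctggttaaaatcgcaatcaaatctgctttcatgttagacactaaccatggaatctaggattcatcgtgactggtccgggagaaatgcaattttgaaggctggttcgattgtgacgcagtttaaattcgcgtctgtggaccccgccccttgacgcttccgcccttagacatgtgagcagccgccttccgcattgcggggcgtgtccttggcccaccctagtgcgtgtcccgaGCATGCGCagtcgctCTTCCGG
Mrps18c (chr5:100798509-100798808, + strand, GRCm38.p6, RefSeq): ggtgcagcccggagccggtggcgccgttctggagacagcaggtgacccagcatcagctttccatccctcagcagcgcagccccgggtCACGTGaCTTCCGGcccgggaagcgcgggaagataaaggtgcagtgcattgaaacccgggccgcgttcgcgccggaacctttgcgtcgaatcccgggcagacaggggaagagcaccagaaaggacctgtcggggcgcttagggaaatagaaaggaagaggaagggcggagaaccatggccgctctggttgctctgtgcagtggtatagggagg

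Levels per length differed widely between members and kept their order between libraries (the plot of RPKM by member). The 77 members tested had a median of 60.6 RPKM, against 10.3 RPKM over all genes tested, and ranged from 6.99 to 263 RPKM. The highest were Mrpl33, Mrps21 and Mrpl52, which encode small proteins of the 2 subunits. Across members the rank correlation of RPKM between 2 libraries was 0.982 to 0.996 over the 15 pairs of libraries, which share the same genes and lengths.

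Mrpl33 had 229, 221 and 321 RPKM in WT and 265, 215 and 325 RPKM in Il21r-/- on days 7, 10 and 14. Mrps21 had 270, 241 and 274 RPKM in WT and 256, 212 and 315 RPKM in Il21r-/-. Mrpl52 had 217, 217 and 257 RPKM in WT and 244, 217 and 341 RPKM in Il21r-/-. These 3 genes overlapped one another across libraries, so their order at the top is not resolved, and within each the genotypes overlapped.

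The lowest members tested were Mrps25 and Mrps36. Mrps25 had 6.72, 6.95 and 8.34 RPKM in WT and 5.70, 5.95 and 8.27 RPKM in Il21r-/-. Mrps36 had 6.24, 6.36 and 7.65 RPKM in WT and 8.11, 5.69 and 8.69 RPKM in Il21r-/-. Mrps36, whose product is known as a component of the oxoglutarate dehydrogenase complex rather than of the ribosome, has pseudogenes that could share its reads, and the exons of Mrps25 overlap those of Nr2c2, so both levels are uncertain. In all, 24 members have exons that overlap another gene of the table, and how reads of such genes were counted is not given in the sources used here. Mrpl36, a large-subunit protein kept from bacteria, did not pass the limit on low expression. It had 3, 3 and 2 counts in WT and 1, 2 and 3 counts in Il21r-/-, and its exons overlap Ndufs6. No fold is given for it, since every library was at or under 3 counts.

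The Mrps18 paralogs encode 3 alternative relatives of 1 bacterial small-subunit protein, of which Mrps18a is known to sit in the large subunit. By its symbol Mrps18a is counted here with the small subunit. Mrps18c had 191, 199 and 269 RPKM in WT and 207, 183 and 260 RPKM in Il21r-/-. Mrps18a had 109, 121 and 131 RPKM in WT and 108, 94.3 and 123 RPKM in Il21r-/-. Mrps18b had 20.1, 21.5 and 19.9 RPKM in WT and 17.9, 17.6 and 21.4 RPKM in Il21r-/-. The 3 paralogs did not overlap in any library, in the order Mrps18c, Mrps18a, Mrps18b.

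**Figure D1:**
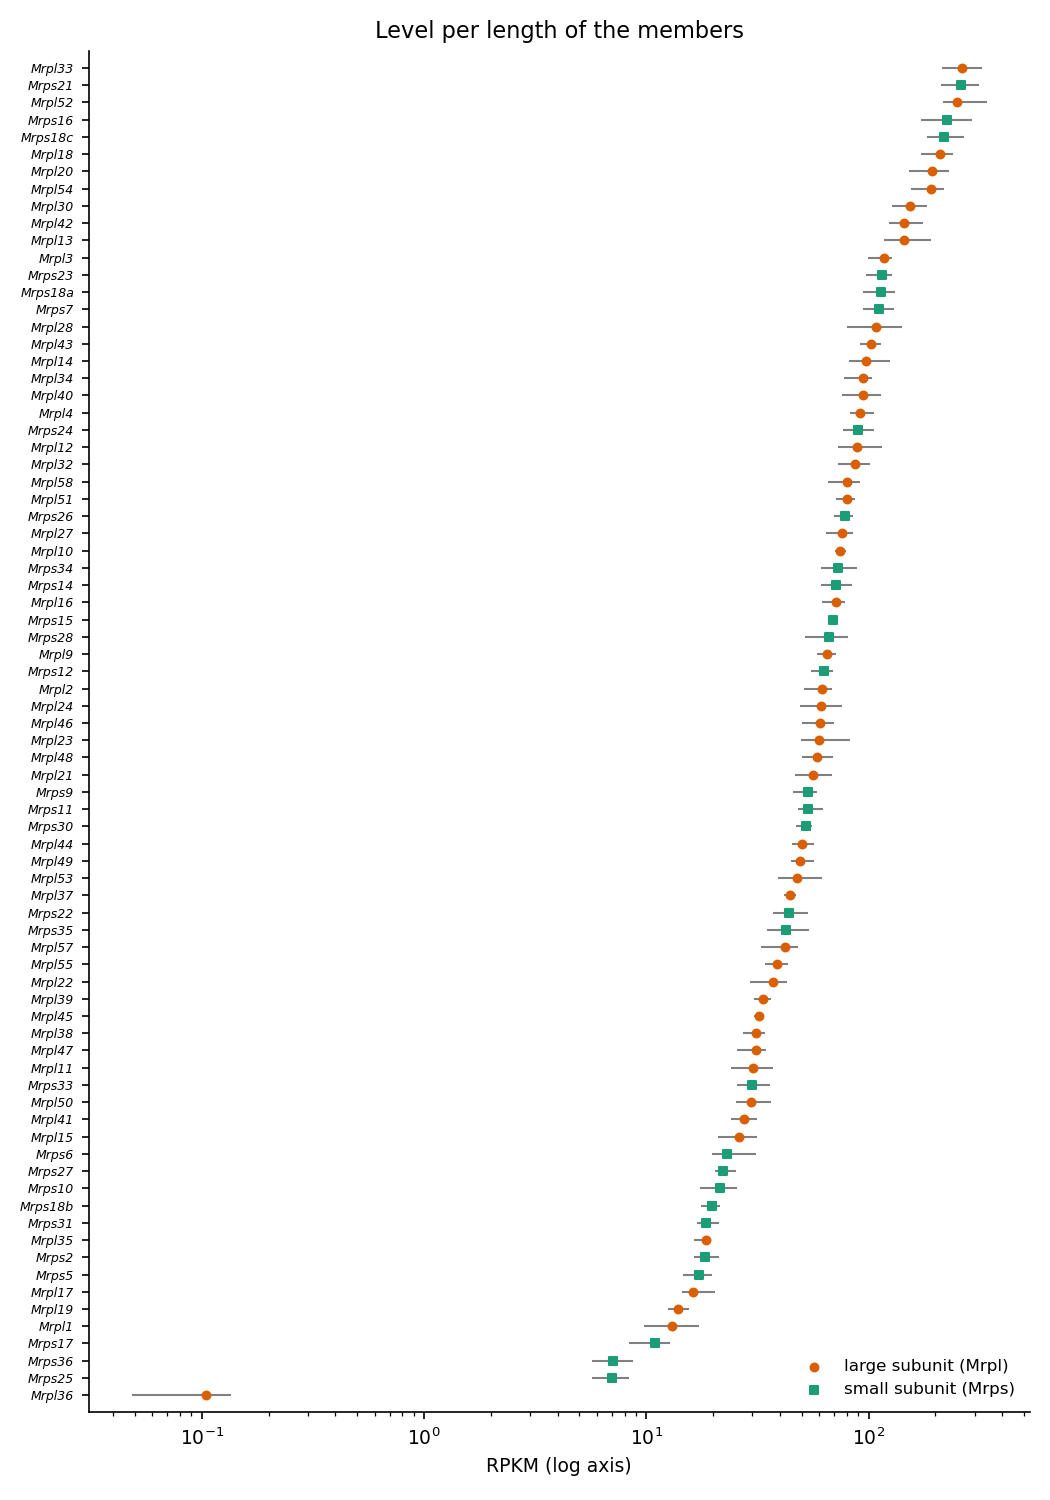
RPKM of the 78 members on a log axis, with the mean of the 6 libraries as a point (orange circles for Mrpl, green squares for Mrps) and the lowest and highest library as a line. Mrpl33 is at the top with 263 RPKM, Mrps25 is the lowest member tested with 6.99 RPKM, and Mrpl36 stands apart at 0.105 RPKM.

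The comparison of genotypes asks whether loss of the IL-21 receptor changed the expression of the mitochondrial ribosome in GC B cells. Over the 3 days no member was called in the fit with a linear day, and 5 were called in the fit that pairs the libraries by day. The mean summed level of the members differed between genotypes by less than the SD between libraries of a genotype. That SD includes the change over days and leaves out the pairing by day. Summed over the 77 members tested, expression was 5661, 5734 and 6477 CPM in WT and 5783, 5039 and 6608 CPM in Il21r-/- on days 7, 10 and 14. The WT sum averaged 5957 ± 451 CPM (SD, n = 3) and the Il21r-/- sum 5810 ± 785 CPM (SD, n = 3). The genotypes overlapped, with the day 14 libraries highest in both genotypes and the Il21r-/- library of day 10 lowest of all.

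Of the 77 members tested, 0 were called by edgeR's quasi-likelihood test with a linear day term (adjusted p under 0.05), while 651 of all 11005 genes were (5.92%). At an unadjusted p under 0.05 there were 3 members (3.90%), against 21.4% of all genes, and DESeq2's Wald test also called 0. The smallest adjusted p of a member was 0.117, for Mrps5. Log2 fold changes of members ran from -0.33 to 0.33 with a median of 0.043, against -0.01 over all genes, and their middle 50% lay between -0.028 and 0.119, against -0.189 and 0.140. Fold changes of members were above 0 for 50 and below 0 for 27, and 48.2% of all genes were above 0. Within 0.2 of 0 on the log2 scale were 69 members (89.6%), against 58.9% of all genes. Genes with many reads vary less by counting, and members are expressed above the median gene, so this comparison of spreads is a description. The median log2 fold change was 0.041 for the 48 Mrpl members and 0.074 for the 29 Mrps members. It was 0.049 for those grouped by symbol as having a bacterial counterpart and 0.040 for those grouped as particular to mitochondria.

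The 2 libraries of a day deviated together across all genes, and with day as a factor, which pairs the libraries by day, 5 members were called. Of these, 4 were higher in WT (Mrps5, Mrpl1, Mrpl28 and Mrpl12, 5.19% of members, against 9.33% of all genes called higher in WT) and 1 was higher in Il21r-/- (Mrps16, 1.30% of members, against 13.6% of all genes). At an unadjusted p under 0.05 there were 10 members, against 33.6% of all genes.

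Mrps5 encodes a protein of the small subunit that is kept from bacteria, where it takes part in the accuracy of decoding. It lies at chr2:127587426-127603986 (GRCm38, + strand). It had 27, 27.6 and 28.2 CPM in WT and 21.7, 20.9 and 23.2 CPM in Il21r-/- on days 7, 10 and 14. All WT libraries were above all Il21r-/- libraries, and the level moved little over days. The log2 fold change was 0.33 with both day terms (SE 0.161, adjusted p = 0.117 with a linear day, and SE 0.116, adjusted p = 0.0192 with day as a factor, edgeR's quasi-likelihood test), a 1.26-fold higher level in WT. Leaving out day 7, day 10 or day 14 each ended this call.

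Mrpl1 encodes the protein of the mobile stalk of the large subunit at which used tRNAs leave (chr5:96209498-96266727, + strand). It had 52.7, 53.3 and 72.0 CPM in WT and 49.9, 40.6 and 56.8 CPM in Il21r-/-. WT was higher on each day, by least on day 7, and the genotypes overlapped because both were higher on day 14. The log2 fold change was 0.27 with day as a factor (SE 0.100, adjusted p = 0.0316 by edgeR's quasi-likelihood test) and 0.26 with a linear day (adjusted p = 0.309).

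Mrpl28, a large-subunit protein kept from bacteria (chr17:26123503-26126613, + strand), had 108, 117 and 150 CPM in WT and 101, 85.1 and 129 CPM in Il21r-/-. The genotypes overlapped, with WT higher on each day and the widest gap on day 10. Its log2 fold change with day as a factor was 0.26 (SE 0.095, adjusted p = 0.0241 by edgeR's quasi-likelihood test).

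Mrpl12 encodes the stalk protein that recruits translation factors and is also known to bind the mitochondrial RNA polymerase (chr11:120484637-120488754, + strand). It had 77.4, 89.7 and 109 CPM in WT and 72.1, 69.4 and 88.6 CPM in Il21r-/-. WT was again higher on each day with overlapping groups. The log2 fold change with day as a factor was 0.26 (SE 0.095, adjusted p = 0.0245 by edgeR's quasi-likelihood test). Without either library of day 10, or of day 14, none of Mrpl1, Mrpl28 and Mrpl12 was called, and without either of day 7 each was.

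Mrps16, a small-subunit protein kept from bacteria (chr14:20391222-20393634, - strand), went the other way. It had 109, 97.8 and 131 CPM in WT and 144, 116 and 165 CPM in Il21r-/-. Il21r-/- was higher on each day, and the genotypes overlapped in that WT on day 14 was above Il21r-/- on day 10. The log2 fold change was -0.33 with day as a factor (SE 0.095, adjusted p = 0.0032 by edgeR's quasi-likelihood test) and -0.33 with a linear day (SE 0.135, adjusted p = 0.211). It was called without either library of day 7 or of day 10, and not without either of day 14.

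**Figure D2:**
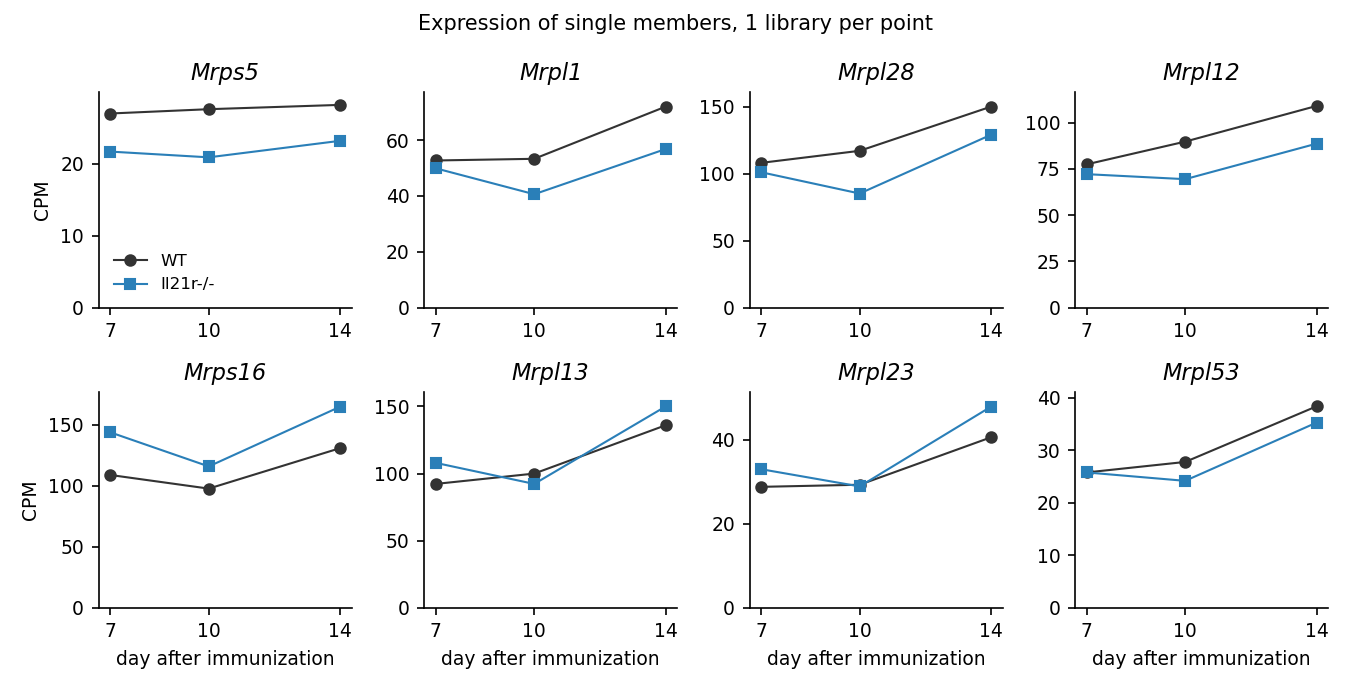
CPM (axis from 0) by day after immunization for 8 members, with WT as dark circles and Il21r-/- as blue squares, 1 library per point. The upper row and Mrps16 are the 5 members called with day as a factor, and Mrpl13, Mrpl23 and Mrpl53 are the 3 with the largest linear day effect, at 136, 40.6 and 38.4 CPM in WT on day 14.

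The next largest difference toward WT was that of Mrps28, and those toward Il21r-/- were of Mrpl30, Mrpl52, Mrps6 and Mrps35. Mrps28, a small-subunit protein, had 45.1, 51.1 and 58.3 CPM in WT and 38.4, 37.5 and 57.8 CPM in Il21r-/-. The genotypes overlapped and were nearly equal on day 14 (log2 fold change 0.23, adjusted p = 0.0898 with day as a factor by edgeR's quasi-likelihood test).

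Mrpl30, a large-subunit protein with a bacterial counterpart, had 101, 88.1 and 108 CPM in WT and 118, 97.4 and 126 CPM in Il21r-/-, higher in Il21r-/- on each day (log2 fold change -0.20, adjusted p = 0.0715 with day as a factor by edgeR's quasi-likelihood test). Mrpl52, a large-subunit protein particular to mitochondria, had 89.6, 89.4 and 106 CPM in WT and 100, 89.4 and 141 CPM in Il21r-/-, with equal levels on day 10 (log2 fold change -0.19, adjusted p = 0.113). Both overlapped between genotypes. The same held for Mrps35 and Mrps6. Mrps35, a small-subunit protein particular to mitochondria, had 37.3, 39.6 and 51.6 CPM in WT and 45.6, 40.1 and 57.6 CPM in Il21r-/-. Mrps6, which has a bacterial counterpart, had 15.4, 17.7 and 17.3 CPM in WT and 15.8, 17.8 and 24.2 CPM in Il21r-/-, so that its difference came from day 14, and its exons overlap Slc5a3.

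Members with roles of their own beside these did not differ beyond the spread. Mrps12, the decoding protein whose bacterial counterpart is the site of streptomycin resistance, had 45.0, 44.9 and 44.6 CPM in WT and 40.5, 37.6 and 47.2 CPM in Il21r-/- (log2 fold change 0.11, SE 0.147). Mrpl58, a peptidyl-tRNA hydrolase that frees stalled mitochondrial ribosomes, had 56.8, 54.6 and 67.4 CPM in WT and 58.7, 48.1 and 66.7 CPM in Il21r-/- (log2 fold change 0.043, SE 0.143). For the Mrps18 paralogs the log2 fold changes were 0.15 (SE 0.137) for Mrps18a, 0.12 (SE 0.167) for Mrps18b and 0.013 (SE 0.136) for Mrps18c. Without an offset for gene length, none of these was called with either day term by edgeR's quasi-likelihood test.

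In 5 members all WT libraries lay above all Il21r-/- libraries (6.49%, against 8.33% of all genes), Mrps5 and, named after their values were seen, Mrpl37, Mrpl38, Mrps15 and Mrps27. The reverse held for 0 members, against 10.0% of all genes. WT was higher on all 3 days in 20 members and on none in 5, and 52 were mixed. The share of all genes for this count is not given here, so no lean toward WT is read from it.

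On single days, the members were near equal on days 7 and 14 and mostly lower in Il21r-/- on day 10. The day-wise test, edgeR's likelihood ratio test on 1 library per genotype, called 0 members on day 7 (1.07% of all genes were called), 0 on day 10 (3.10%) and 0 on day 14 (3.28%). At an unadjusted p under 0.05 there were also 0 on each day, against 5.51, 10.8 and 12.1% of all genes. The median log2 fold change of members was -0.027 on day 7, 0.183 on day 10 and 0.003 on day 14, where the median SE of a member was 0.236. Above 0 were 34 members on day 7 (44.2%, against 50.5% of all genes), 71 on day 10 (92.2%, against 47.6%) and 39 on day 14 (50.6%, against 48.5%). The summed WT level was 0.979, 1.138 and 0.980 times the Il21r-/- level on the 3 days. The day 10 median was 0.182 for the large and 0.188 for the small subunit, while on day 7 the medians were -0.038 and 0.016 and on day 14 they were 0.003 and -0.054. The subunits were not tested against each other.

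**Figure D3:**
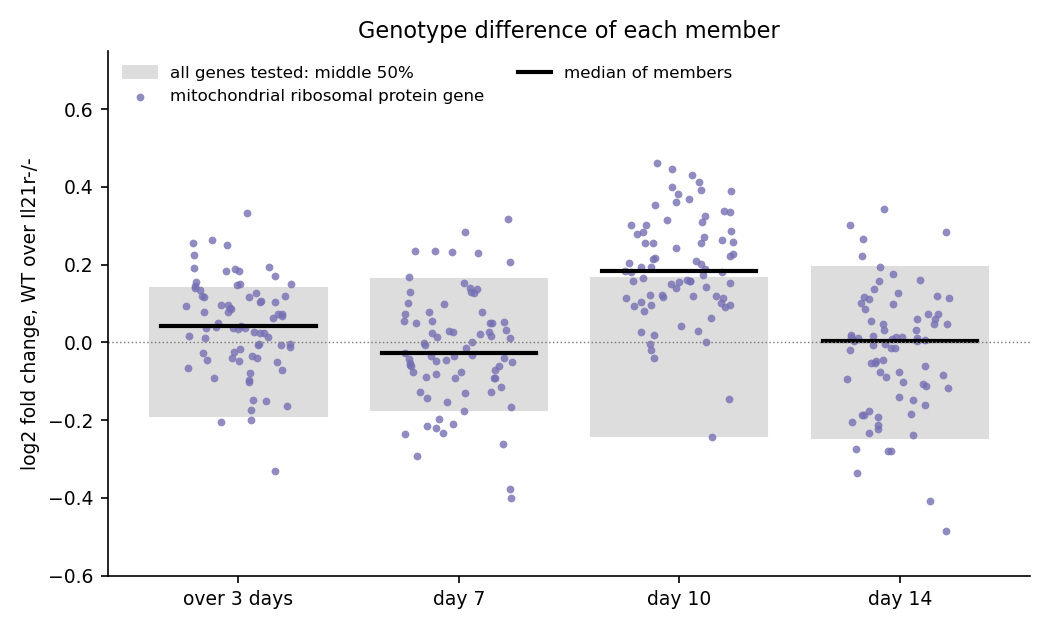
Log2 fold change (WT over Il21r-/-) of the 77 members tested, over 3 days and on each day, 1 point per member, with the median of members as a black line and the middle 50% of all genes tested as a grey box. The day 10 points have a median of 0.183 and 71 of them lie above 0, while those of days 7 and 14 lie on both sides of 0.

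The day 10 difference lay in the Il21r-/- library of that day. It held the lowest value of the 6 libraries in 63 members (81.8%, against 17.5% of all genes), and it was below the member's own mean in 76 of 77, with a median of -0.23 on the log2 scale. The WT library of day 10 had a median of -0.02, between those of day 7 (-0.07 in WT and -0.05 in Il21r-/-) and of day 14 (0.15 and 0.14). Compared with the mean of days 7 and 14, the log2 fold change of day 10 was higher in 75 members (97.4%, against 48.3% of all genes), with a median of 0.22, and 0 members passed the test of that difference (0.00% of all genes did, and 0 members at an unadjusted p under 0.05, edgeR's likelihood ratio test). This contrast was added after the values had been seen. In that library the summed markers were 12300 CPM for GC B cells, 1380 CPM for non-GC B cells and 3970 CPM for plasma cells, within the range of the other libraries. Its erythroid and myeloid sums, 4.95 and 2.63 CPM, were the lowest of the 6. With 1 library, a lower share of cells rich in these messages and less of them per cell cannot be told apart, nor can genotype and library.

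**Figure D4:**
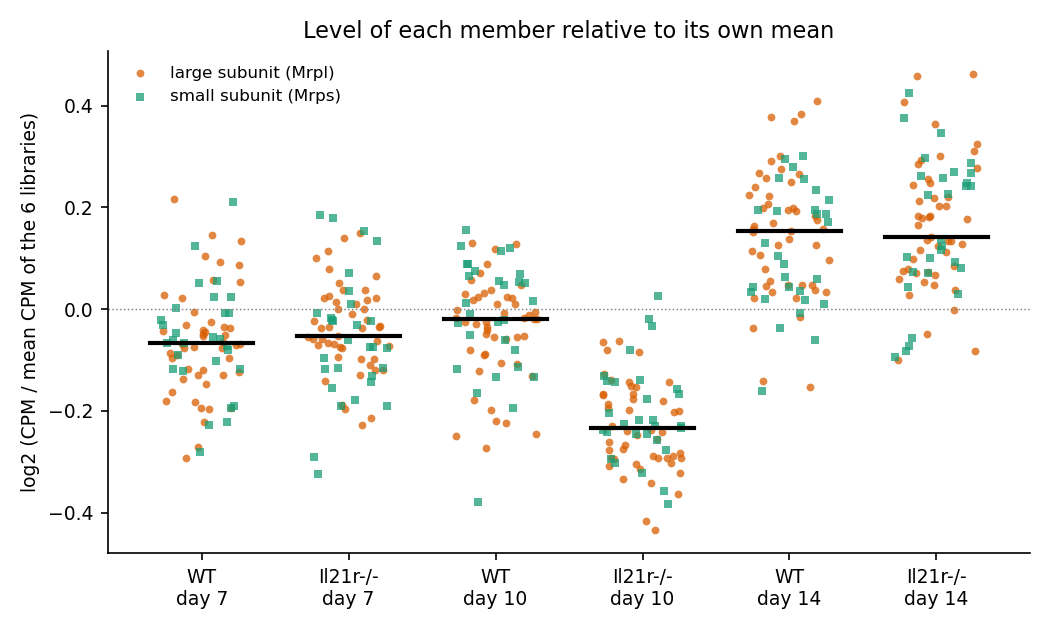
CPM of each of the 77 members tested divided by its mean over the 6 libraries (log2), by library, with large-subunit members as orange circles, small-subunit members as green squares and the median as a black line. The Il21r-/- library of day 10 sits lowest (median -0.23, 76 of 77 below 0) and both day 14 libraries sit highest (medians 0.15 and 0.14).

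Most members are short genes, and the difference between genotypes went with gene length across all genes. By exon length, 54 of the 77 members fell in the shortest quintile of the genes tested (up to 1451 bases). In that class the median log2 fold change of all genes was -0.091 on day 7, 0.066 on day 10 and -0.14 on day 14, and in the longest quintile it was 0.081, -0.131 and 0.083. The 54 short members had medians of -0.030, 0.202 and -0.048, and the 23 longer members -0.002, 0.159 and 0.019, with 23 of 23 above 0 on day 10. With an offset for each library's trend on length, the medians of all members were 0.043, 0.165 and 0.076, and 69 were above 0 on day 10. The offset brought 4 members past the threshold over 3 days with a linear day, all higher in WT (Mrps5, Mrpl12, Mrpl28 and Mrps28, against 4.73% of all genes called higher in WT). With day as a factor and the offset, 10 were called higher in WT (13.0%, against 12.5% of all genes) and 1, Mrps16, higher in Il21r-/- (1.30%, against 14.3%). The 10 were Mrps5, Mrpl1, Mrpl12, Mrpl28, Mrps28 and Mrps18a, with Mrpl18, Mrpl20, Mrpl34 and Mrps7 named after their values were seen. The part of length in the members' values beyond this offset was not tested.

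**Figure D5:**
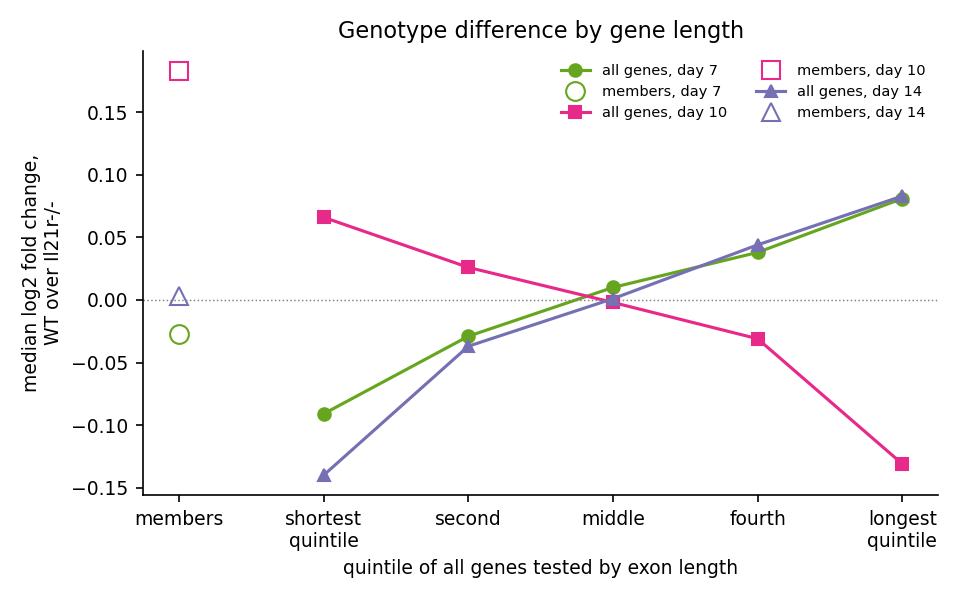
Median log2 fold change (WT over Il21r-/-) on days 7, 10 and 14 for all genes tested in 5 classes of exon length (filled symbols) and for the members (open symbols at the left). In the shortest quintile the medians are -0.091, 0.066 and -0.14, and the members sit above that class on each day at -0.027, 0.183 and 0.003.

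Over time, the course from day 7 to day 14 was examined in both genotypes together. Levels of members were highest on day 14, in the sums 1.14 times those of day 7 in each genotype. No member passed the test of a linear day effect, whereas 35 were called higher on day 14 when that day was set against days 7 and 10 with day as a factor. On day 10 the sum was 1.01 times that of day 7 in WT and 0.871 times in Il21r-/-. Both day 14 libraries were above the 4 earlier ones in 50 members (64.9%, against 13.9% of all genes), 35 of the large and 15 of the small subunit. The slope was above 0 in 72 of 77 members (93.5%, against 50.5% of all genes), with a median of 0.033 log2 units per day. Of the 77, 0 were called by edgeR's quasi-likelihood test, against 4.43% of all genes, and 21 had an unadjusted p under 0.05 (27.3%, against 23.5% of all genes). DESeq2's Wald test called 2.

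With day as a factor, day 14 was set against the mean of days 7 and 10, a contrast added after the values had been seen. By edgeR's quasi-likelihood test 35 members were called higher on day 14 (45.5%, against 12.6% of all genes) and 0 lower, 25 of the large and 10 of the small subunit. The median log2 difference was 0.25, against -0.017 over all genes. By the same contrast 77 of the 85 cytosolic ribosomal protein genes tested and 52 of the 81 oxidative phosphorylation subunits were called higher. The members with the smallest p were Mrpl13 (log2 difference 0.54, adjusted p = 4.14e-05), Mrpl33 (0.48, adjusted p = 0.000142), Mrpl23 (0.56, adjusted p = 0.000205) and Mrps18c (0.44, adjusted p = 0.000342). In 33 of the 35 both day 14 libraries were above the 4 others. The count fell to 14 higher (against 11.0% of all genes) and 1 lower, Mrpl4, with the length offset. It was 13 without the WT library of day 14, 5 without the Il21r-/- library of day 14, 22 without the Il21r-/- library of day 10 and 23 without the WT library of day 7.

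The 3 largest slopes were those of Mrpl23, Mrpl13 and Mrpl53. Mrpl23, a protein near the exit of the nascent peptide, had 28.8, 29.3 and 40.6 CPM in WT and 33.0, 28.9 and 47.9 CPM in Il21r-/- (0.078 log2 units per day, SE 0.026, adjusted p = 0.103 by edgeR's quasi-likelihood test). Mrpl13, a large-subunit protein kept from bacteria, had 92.3, 100 and 136 CPM in WT and 108, 92.3 and 150 CPM in Il21r-/- (0.077, SE 0.024, adjusted p = 0.0856), and its exons overlap Mtbp. Mrpl53, a large-subunit protein particular to mitochondria, had 25.8, 27.8 and 38.4 CPM in WT and 25.8, 24.2 and 35.3 CPM in Il21r-/- (0.076, SE 0.027, adjusted p = 0.082). In each of them both day 14 libraries were above the 4 others. The smallest adjusted p for a linear day, 0.0747, was that of Mrpl14, named after its values were seen.

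Only 5 slopes were below 0, the lowest those of Mrpl4, Mrps2 and Mrpl43. Mrpl4, which lines the peptide tunnel, had 137, 129 and 106 CPM in WT and 119, 106 and 110 CPM in Il21r-/- (-0.033 log2 units per day, SE 0.024, adjusted p = 0.278 by edgeR's quasi-likelihood test). Mrps2 had 44.1, 39.6 and 34.1 CPM in WT and 36.2, 38.8 and 36 CPM in Il21r-/-, and Mrpl43, whose exons overlap Twnk, had 138, 123 and 113 CPM in WT and 135, 111 and 128 CPM in Il21r-/-. In all 3 the WT libraries were lower with each day, and the Il21r-/- libraries were not.

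The genotypes were not shown to differ in their course. The test of a difference in slope called 0 members (0.00% of all genes were called), with 0 members and 118 genes in all at an unadjusted p under 0.05 (edgeR's quasi-likelihood test), and the slope difference was above 0 in 39 members and below 0 in 38.

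Several of these counts depended on the Il21r-/- library of day 10. Without it, 19 members were called for a linear day effect, all rising (against 8.83% of all genes called as rising), among them Mrpl13, Mrpl23, Mrpl53, Mrpl12, Mrpl28, Mrpl33, Mrpl52, Mrps18c, Mrps25, Mrps28 and Mrps35. Over genotypes, 3 members were then called, all higher in Il21r-/- (against 11.0% of all genes called in that direction). These were Mrps16 (log2 fold change -0.45, adjusted p = 0.00699 by edgeR's quasi-likelihood test), Mrpl52 (-0.32, adjusted p = 0.0278) and Mrpl30 (-0.30, adjusted p = 0.0403). The median of members over 3 days was -0.021 without that library.

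Other gene families read out of the same libraries showed where the members stood. Of 85 cytosolic ribosomal protein genes tested, 1 had a log2 fold change above 0 over 3 days and 84 were below, with a median of -0.269, against 0.043 for the mitochondrial members. With a linear day 0 of the 85 were called by edgeR's quasi-likelihood test, and with day as a factor 52 were, each of them higher in Il21r-/- (against 13.6% of all genes). With the length offset the median was -0.175, and 1 was called with a linear day and 36 with day as a factor, all higher in Il21r-/-. Without either library of day 7 the count with day as a factor was 26, and without the WT or the Il21r-/- library of day 14 it was 5 or 6. Without the Il21r-/- library of day 10, 62 were called with a linear day. On day 10 the Il21r-/- library was lowest in 8 of the 85 (9.41%), against 63 of 77 mitochondrial members. The 81 subunits of oxidative phosphorylation that passed the filter had a median of -0.029 over 3 days, which turned to 0.070 with the length offset and ran from -0.128 to 0.091 with 1 library left out. Their day 10 median was 0.131, and the Il21r-/- library of day 10 was lowest in 65 of them (80.2%). No test of these families against the members was made.

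The other genes of mitochondrial translation were read from lists by role. Of 5 further ribosomal proteins without an Mrp symbol, 0 were called with either day term. Ptcd3 had 58.3, 66.1 and 80.2 CPM in WT and 55.4, 59.2 and 63.1 CPM in Il21r-/-, higher in WT on each day (log2 fold change 0.19, SE 0.142, adjusted p = 0.307 by edgeR's quasi-likelihood test). Gadd45gip1 had a log2 fold change of 0.11 (SE 0.139).

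Of 31 genes of ribosome assembly and ribosomal RNA modification, 1 was called, higher in WT, and 0 lower. Trmt61b, which encodes a methyltransferase for adenosines in mitochondrial tRNA and ribosomal RNA, had 10.5, 11.7 and 10.9 CPM in WT and 4.32, 3.12 and 3.13 CPM in Il21r-/-. All WT libraries were above all Il21r-/- libraries by a wide gap (log2 fold change 1.65, SE 0.212, adjusted p = 0.0014 by edgeR's quasi-likelihood test). On single days, where 1 library per genotype is compared with a spread taken from all days, the adjusted p was 0.017, 7.32e-06 and 3.54e-05 on days 7, 10 and 14 by edgeR's likelihood ratio test, and the day 7 call was lost when the WT library of day 10 or of day 14 was left out of that spread. It was the only gene called with a linear day among the 100 tested in these 6 lists. With day as a factor, Dhx30, an RNA helicase of ribosome assembly, was also called higher in WT (log2 fold change 0.26, adjusted p = 0.0241). C1qbp, a matrix protein that binds mitochondrial RNA, was the second of this list by p with a linear day (0.18, adjusted p = 0.328).

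Among 15 translation factors tested of 16, 0 were called with a linear day. Gfm1, an elongation factor, had 57.8, 65.8 and 56.5 CPM in WT and 51.4, 49.4 and 47.1 CPM in Il21r-/-, and all WT libraries were above all Il21r-/- libraries (log2 fold change 0.29, adjusted p = 0.158 with a linear day, and 0.28, adjusted p = 0.0217 with day as a factor, edgeR's quasi-likelihood test). Metap1d, a mitochondrial methionine aminopeptidase, had 3.55, 5.20 and 7.07 CPM in WT and 6.20, 6.06 and 9.23 CPM in Il21r-/-, with overlapping groups (-0.46, adjusted p = 0.043 with day as a factor). Of 20 genes for the charging of mitochondrial tRNA, 0 were called with a linear day. They are aminoacyl-tRNA synthetases apart from Qrsl1, Gatb and Gatc. Wars2 was at -0.32 (adjusted p = 0.259 by edgeR's quasi-likelihood test).

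Of 20 genes of mitochondrial DNA expression, 0 were called with a linear day. With day as a factor 2 were called higher in WT (against 9.33% of all genes) and 1 higher in Il21r-/- (against 13.6%). Higher in WT were Polrmt, the mitochondrial RNA polymerase (log2 fold change 0.29, adjusted p = 0.046 by edgeR's quasi-likelihood test), and Pnpt1, an RNA-degrading enzyme (0.25, adjusted p = 0.0491). Higher in Il21r-/- was Hsd17b10, a subunit of mitochondrial RNase P (-0.32, adjusted p = 0.00423). Of 9 nuclear regulators tested of 10, 0 were called with a linear day. With day as a factor 1 was called higher in WT, against 9.33% of all genes. That gene was Gabpa, which encodes a subunit of GABP (0.23, adjusted p = 0.0445 by edgeR's quasi-likelihood test). Yy1 was at 0.19 (adjusted p = 0.284 with a linear day), and Ppargc1a was below the limit on low expression.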

How the data were processed

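Single-end reads were mapped by the authors to mm10 (Rsubread) and assigned to RefSeq genes (featureCounts), technical replicates were pooled, and the deposited values are whole-number counts per gene. The submitters' processing notes name CASAVA 1.8.2 and featureCounts. The kit (TruSeq v2) keeps no strand, and the settings for overlapping genes and multi-mapping reads are not given in the sources used here. Members were found by symbol. Of the 27179 identifiers, 25275 had a symbol in a RefSeq table of GRCm38.p6 and 18 more in GENCODE transcripts.

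Ig variable genes, Xist, genes of the Y chromosome and those with an average log2 CPM under 0 were removed, TMM factors were computed, and 11005 genes were tested with R 4.3.3 and edgeR 4.0.16. Genotype, linear day and their interaction were tested over the 6 libraries by the quasi-likelihood test. Genotype on each day was tested by likelihood ratio with dispersions of the additive model (common dispersion 0.017, 3 residual degrees of freedom). P-values were adjusted by Benjamini-Hochberg over all genes tested (threshold 0.05). CPM, RPKM and SEs (from the fitted negative binomial model) were computed from the deposited counts and gene lengths. After subtracting genotype means, the 2 libraries of a day correlated across genes with r = 0.64, 0.413 and 0.645 on days 7, 10 and 14, so that day pairs the libraries, and fits with day as a factor (the replicate block) are given beside the results they change. Day 14 against days 7 and 10 in that fit and day 10 against days 7 and 14 in the day-wise fit were added after the data were seen.

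Members named singly were those failing the filter, the 3 highest and 3 lowest per length, the 5 with the largest fold change in each direction, the 3 with the largest day effect in each direction, the Mrps18 paralogs, Mrpl12, Mrps12 and Mrpl58, and of the pathway lists genes called in a main test and the 2 with the smallest p. Other names were chosen after their values were seen, as were Dhx30 and Polrmt. The members and lists were chosen with earlier results of these data known. Alternatives were day as a factor, a gene length offset, DESeq2 size factors, a minimum of 10 counts, no filter, DESeq2 1.42.0, other dispersion settings and leaving out each library. The procedure was tested on simulated data with a genotype effect, no day effect and independent libraries, which does not cover the pairing by day. Not every result of the lists is reported here.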

Additional observations from a re-analysis of the deposited data

How the results depend on the processing

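With day as a factor (replicate block), 5 members were called over 3 days in place of 0, with a length offset and a linear day 4, and with both 11. Leaving out 1 library gave 0 to 3 members with a linear day and 0 to 4 with day as a factor, a setting added after the data were seen. Without the Il21r-/- library of day 10 there were 3 and 1, and without the WT library of day 10 there were 0 and 1. For the linear day effect, the length offset called 1 member (Mrpl13), no low count filter 2 and DESeq2's Wald test 2 (Mrpl13 and Mrpl14 in both), and leaving out 1 library gave 0 to 19, the highest without the Il21r-/- library of day 10. For day 14 against days 7 and 10, the length offset called 15 members in place of 35, and leaving out 1 library gave 5 to 46, the lowest without the Il21r-/- library of day 14. Counts for single days and for the difference in slope were 0 under each alternative. Except where printed, the share of all genes called under an alternative is not given. A change in power therefore cannot be told from a change in the members. The median log2 fold change over 3 days was 0.043, between 0.045 and 0.090 under the alternatives with all libraries, and between -0.021 and 0.131 with 1 library left out.

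Of 494 values of named genes under alternatives, 428 kept their direction and their side of the threshold, 29 kept their direction and passed it, and 37 changed sign. Mrpl33 was at 0.054 with the length offset under both day terms, and Mrpl43 was at 0.032 and 0.031 there, at 0.001 with DESeq2's size factors and its Wald test, and at 0.003 without the filter. With 1 library left out the values ran from -0.224 to 0.055 for Mrpl13, -0.197 to 0.108 for Mrpl33, -0.090 to 0.118 for Mrpl43, -0.069 to 0.174 for Mrpl58, -0.084 to 0.151 for Mrps18c, -0.016 to 0.159 for Mrps2, -0.115 to 0.191 for Mrps21 and -0.314 to 0.056 for Mrps36. Within these ranges, with day as a factor Mrpl33 was at 0.022 and Mrps21 at -0.001 without either library of day 7, Mrps18c at -0.033 and Mrps21 at -0.063 without either of day 10, and Mrpl43 at 0.092 without the Il21r-/- library of day 14. None of these 8 genes was called under any of the alternatives over 3 days, and the cause of the changes was not tested.

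With 1 library per genotype and day, a difference of the size seen on day 10 (median 0.183) was below the median SE of a member on a day (0.236) and was not detectable gene by gene. The 77 members tested had 107 to 5696 counts in each library, so that counting error weighed most on the lowest of them, and Mrpl36 had at most 3.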
